A study of Mus musculus with 30 samples.

Results

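The genes described here encode the subunits of the proteasome, the protease that degrades ubiquitin-tagged proteins. They were taken as the probe sets whose only gene symbol began with Psma, Psmb, Psmc or Psmd and a digit, with the probe set of the highest mean log2 value over all 30 arrays standing for each gene. The rule matched 40 symbols, of the 18193 symbols with a probe set of their own. Among them, Psmc3ip encodes a protein that binds PSMC3 and works in meiotic recombination and is no proteasome subunit, so its values are given apart from the others. Of the remaining 39 genes, 19 encode core subunits and 20 regulatory ones. Psmb11, the catalytic subunit of the thymus, lay at the lowest value of the array on 14 of 24 pool arrays and did not pass the filter on low values, which left 18 core and 20 regulatory genes among 13250 genes tested.

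Embryoid bodies (EB) of the mouse embryonic stem cell line R1, aggregates grown without the cytokine LIF to day 5, were compared with undifferentiated R1 embryonic stem cells (ESC) kept in LIF. Both were exposed to 150 ug/ml cycloheximide for 15 min to hold ribosomes on their mRNAs, and cytoplasmic lysate was spun through a sucrose gradient whose fractions were combined into 4 pools. From every culture, 3 in each state, 5 RNA samples were hybridised: the 4 pools and the unfractionated lysate (total RNA), each labelled from 2.5 ug. Day-5 aggregates are a mixed population, and on these arrays fewer cells of a type cannot be told apart from less RNA per cell. Which end of the gradient pool 1 holds is not given in the labels, and pools carry their numbers here; ND5, an mRNA made and translated inside mitochondria, had the lowest ratio of pools 3 and 4 to pools 1 and 2 of all tested genes in EB (-4.05 on the log2 scale) and in ESC (-2.84).

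The proteasome consists of a barrel-shaped core particle and a regulatory particle that caps it. In the core, rings of alpha subunits (Psma genes) form the gate and rings of beta subunits (Psmb genes) hold the proteolytic sites. The constitutive catalytic subunits are encoded by Psmb5, Psmb6 and Psmb7, and interferon induces Psmb8, Psmb9 and Psmb10, whose products take their places in the immunoproteasome. The base of the regulatory particle contains a ring of ATPases (Psmc1 to Psmc6) that unfold the substrate and scaffold subunits (Psmd1, Psmd2) with the ubiquitin receptor Psmd4, and the lid (Psmd3, Psmd6 to Psmd8 and Psmd11 to Psmd14) contains the deubiquitinase Psmd14. Psmd5, Psmd9 and Psmd10 encode chaperones that assemble the base and are absent from the mature particle, although their symbols place them with the regulatory genes here. Human embryonic stem cells are known for high proteasome activity.

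Values are log2 signals relative to all genes: 32 was added to the linear signal and the arrays of a comparison were given the same distribution by quantile normalization. A gene is called when limma gave a Benjamini-Hochberg adjusted p below 0.05 over the 13250 genes. The deposited scale, and a deposited difference, refer here to the deposited signal with the same 32 added and no normalization between arrays. Highest pools and profiles over the pools on that scale use the deposited log2 values without the 32. On the deposited scale nearly all genes were higher in EB: the median difference between EB and ESC in total RNA over all tested genes was 0.96 on that scale and -0.0042 relative to all genes. The deposited arrays appear, from their values, to be scaled to spike-in controls, and the step at which these were added is not given in the sources used here, so it was not tested whether the rise of nearly all genes is one of RNA content or of scaling. Changes below are relative to all genes. The 2 scales often disagreed in sign: of the 38 subunit genes tested, 21 had the opposite sign on the deposited scale in total RNA, 20 in the pool ratio between EB and ESC, 2 in pool 1, 7 in pool 2, 21 in pool 3 and 16 in pool 4. For members named as called, the deposited difference is given where its sign was opposite. The arrays themselves differed between the states. Mean linear signal ranged from 96.1 to 577.8 over the EB arrays and from 72.4 to 322.7 over the ESC arrays, and 18.3% to 45% of probe sets in EB pools and 30% to 59.1% in ESC pools lay at the lowest value of their array. The log2 ratio of the 3' to the 5' beta-actin control probe sets, a measure of RNA or label integrity, averaged 2.26 ± 0.22 in EB and 3.10 ± 0.29 in ESC total RNA (SD, n = 3 each). It was also lower in EB in every pool, at 2.55, 1.66, 1.10 and 0.743 in EB pools 1 to 4 and 4.06, 4.10, 2.69 and 2.30 in ESC pools 1 to 4. Its part in the results was not tested. The array of EB pool 2, replicate 3, stood apart with hybridisation controls at a mean log2 of 13.92, against 9.60 to 12.65 over the ESC arrays. The 8 markers of undifferentiated cells (Pou5f1, Sox2, Nanog and others) were tested in total RNA, where Nanog was called higher in EB and the other 7 were not called, and 4 of 7 tested endoderm markers (Ttr, Sox17, Gata6 and Dab2) were higher in EB. None of the 4 tested immune-cell markers and none of the 3 tested fibroblast markers was called.

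In total RNA, proteasome genes as a group stayed close to the middle of all genes. The median difference between EB and ESC was -0.09 over the 18 core genes and 0.02 over the 20 regulatory genes. Of the 38 genes, Psmd5 was called higher in EB and Psma8 and Psmb10 were called lower, while 6.55% of all tested genes were called higher and 6.09% lower. An unadjusted p below 0.05 by limma was reached by 12 of the 38, and by 4004 of all 13250 tested genes. The direction of calls moved with the scaling, with 4 higher and 0 lower by hybridisation control scaling and 0 higher and 11 lower by 75th percentile scaling. These scalings shift all genes of an array together. The shares of all tested genes called under them are not given here, so these counts do not show a shift particular to the members. On the deposited scale 37 of the 38 were called higher, where 78.9% of all tested genes were. Members called higher from the deposited values in the comparisons below numbered 36 for the pool ratio between EB and ESC (64.5% of all tested genes), 38 for the ratio within EB (60.3%) and 16 within ESC (7.01%). In single pools they numbered 31 in pool 3 (54.9%), 38 in pool 4 (75.4%) and 0 in pool 2 (2.08%). In pool 2 limma gave 4 of the 38 an unadjusted p below 0.05 on that scale. The share of all tested genes below that unadjusted threshold is not given here. The 2.08% is a share of adjusted calls, so the 4 cannot be set against it.

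Psmd5, the base assembly chaperone also called S5b, had 9.65, 9.64 and 9.80 in EB and 9.23, 9.18 and 9.38 in ESC. The groups did not overlap, and the difference was 0.43 ± 0.11 (SE, n = 3 each, adjusted p = 0.0496 by limma). This call lies at the threshold and was lost when any replicate was left out; of the 3 calls, 0 or 1 remained in number without 1 replicate. Psma8, an alpha subunit made in the testis in place of Psma7, had 7.42, 7.64 and 7.26 in EB and 8.17, 8.04 and 8.10 in ESC. It fell by 0.66 on the log2 scale in EB (SE 0.13, adjusted p = 0.0225), whereas the difference was 0.54 on the deposited scale. Psmb10, the interferon-inducible counterpart of Psmb7, had 7.94, 7.91 and 7.84 in EB and 8.40, 8.57 and 8.63 in ESC. Its difference was -0.64 ± 0.11 (adjusted p = 0.0158), and 0.63 on the deposited scale.

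Other members lay on both sides of 0 without being called. Psmb7 had 10.83, 11.07 and 11.26 in EB and 10.52, 10.78 and 10.72 in ESC, a difference of 0.38 ± 0.15 (adjusted p = 0.129). Psmd2, a scaffold of the base, had 11.04, 10.97 and 11.06 in EB and 10.70, 10.61 and 10.69 in ESC, with no overlap and a difference of 0.36 ± 0.10 (adjusted p = 0.0609). Psmc4, a base ATPase, had 10.87, 11.63 and 10.78 in EB and 11.86, 11.50 and 11.49 in ESC, where the second EB culture overlapped the ESC range (-0.52 ± 0.24, adjusted p = 0.199, and 0.58 on the deposited scale). The 6 ATPases ran from -0.52 for Psmc4 to 0.30 for Psmc5, and 1 of them was above 0. The 8 lid genes ran from -0.29 for Psmd13 (0.95 on the deposited scale) to 0.35 for Psmd7, and 5 were above 0. Psmc3ip differed by 0.14 and was not called. The mean of the core genes minus that of the regulatory genes was -0.074, -0.067 and -0.085 in the EB cultures and 0.015, 0.043 and 0.187 in the ESC cultures. This gap between the states of -0.16 shrank to -0.02 when all probe sets of a gene were averaged. Here and below, that average includes probe sets that the filter on low values left out. Probe sets of the same gene often disagreed in total RNA: of 18 genes with several, Psmc3ip included, 5 had the same sign in all of them.

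**Figure D1:**
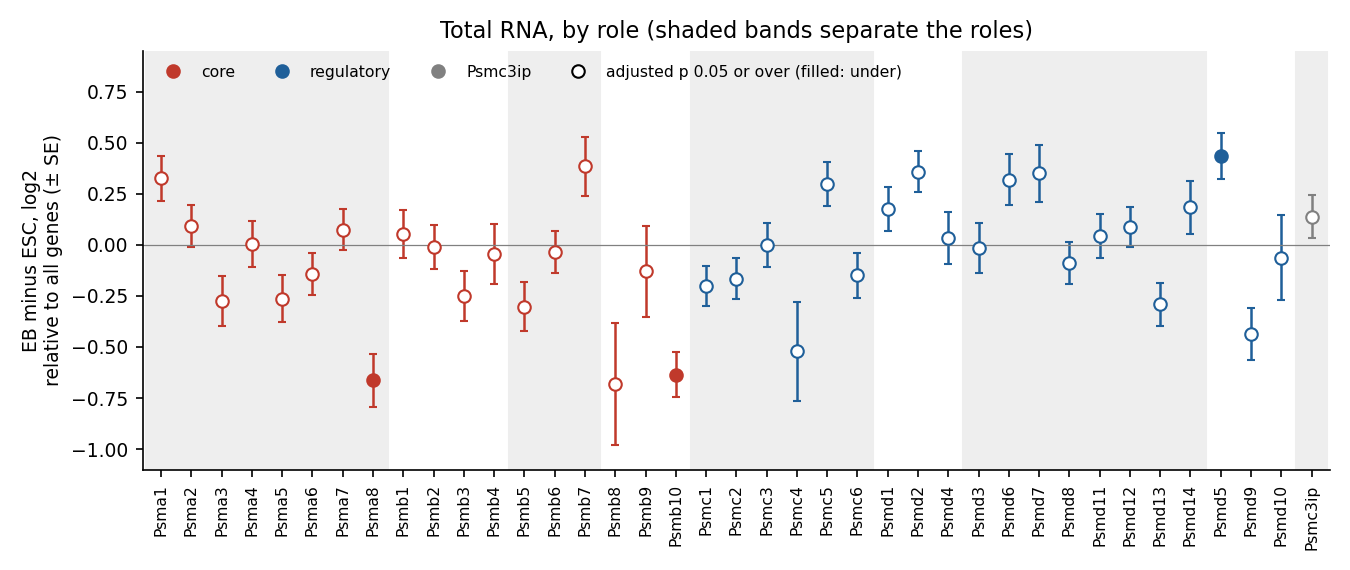
Difference between EB and ESC in total RNA (log2 relative to all genes) for the 39 tested genes, with the SE of limma, ordered by role in shaded and white bands: alpha ring, other beta subunits, catalytic, interferon-inducible, base ATPases, other base subunits, lid, assembly chaperones and Psmc3ip. Filled points passed the adjusted threshold of 0.05: Psma8 at -0.66, Psmb10 at -0.64 and Psmd5 at 0.43; Psma8 and Psmb10 were above 0 on the deposited scale.

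Core and regulatory genes were then placed along the gradient by the pool in which their mean was highest. Relative to all genes, mRNAs of core subunits were highest in pool 3, while most mRNAs of regulatory subunits reached their highest values in pool 4 in EB (in pool 3 on the deposited scale). In EB, 17 of 18 core genes had their highest mean in pool 3 and 16 of 20 regulatory genes had it in pool 4, where 16.6% of all tested genes had theirs in pool 3 and 30.8% in pool 4. In ESC, 14 of 18 core genes were highest in pool 3, and regulatory genes were divided, with 10 of 20 highest in pool 4 and 9 in pool 3 (all tested genes, 20% in pool 3 and 23.1% in pool 4). The exceptions in EB were Psmb1, a beta subunit without proteolytic activity in mammals, which was highest in pool 2, and the lid genes Psmd7 and Psmd8 and the chaperones Psmd9 and Psmd10, which were highest in pool 3. The pool with the highest value depends on the scale, since total signal differed between pools: on the deposited scale all 18 core genes and 15 of 20 regulatory genes were highest in pool 3 in EB, where 54.7% of all tested genes were, and 12 of 18 core and 11 of 20 regulatory genes were highest in pool 2 in ESC, below the 82.8% of all tested genes.

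**Figure D2:**
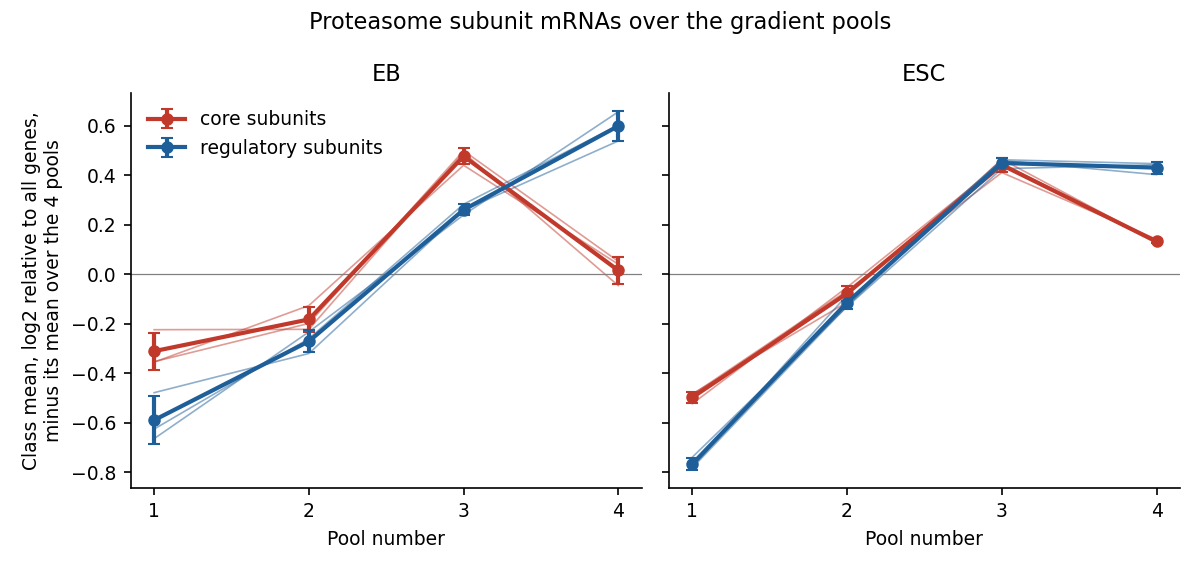
Mean log2 value relative to all genes of the 18 core genes and the 20 regulatory genes in pools 1 to 4, minus its mean over the pools, with EB in the left panel and ESC in the right. Thin lines are the 3 cultures and points their mean with the SD; the core line falls from pool 3 to pool 4 in both states (EB 0.48 and 0.02, ESC 0.44 and 0.13), while the regulatory line rises in EB (0.26 and 0.60) and is level in ESC (0.45 and 0.43), and on the deposited scale the regulatory mean also falls from pool 3 to pool 4 in both states.

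The position of a gene was summarised by its pool ratio, its mean log2 level in pools 3 and 4 after subtraction of its mean in pools 1 and 2. Within EB, 29 of the 38 genes were called above 0 and none below, by limma, namely 11 of 18 core and 18 of 20 regulatory genes (all tested genes, 23.2% above and 19.2% below). Within ESC the counts were 11 of 18 core and 17 of 20 regulatory genes, with none called below 0 (all tested genes, 16.5% above and 16.1% below). Of the 9 genes not called in EB, 4 were below 0 (Psmb1, Psmb6, Psmd8 and Psma8, between -0.24 and -0.02), and these 4 were above 0 on the deposited scale, between 0.58 and 0.81. Psmc3ip was called below 0 in both states, at -0.77 in EB and -0.47 in ESC, and was above 0 on the deposited scale in EB, at 0.25.

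Core genes had lower ratios than regulatory genes in every culture. The core mean was 0.446, 0.481 and 0.552 and the regulatory mean 0.798, 0.886 and 0.897 in the EB cultures. In the ESC cultures the core mean was 0.553, 0.596 and 0.575 and the regulatory mean 0.910, 0.870 and 0.863. Core minus regulatory was thus -0.367 ± 0.032 in EB and -0.306 ± 0.045 in ESC (SD, n = 3 each), with overlapping cultures. The difference shrank to -0.18 in EB and -0.13 in ESC when all probe sets of a gene were averaged, and kept its sign. The beta-actin integrity ratio also changed along the pools, as given above, and its part in this difference was not tested.

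By role, the 3 base subunits without ATPase activity had the highest median ratio, 1.43 in EB and 1.57 in ESC. Psmd1, a scaffold of the base, had a ratio of 1.59 ± 0.11 in EB and 1.70 ± 0.11 in ESC (SE), and Psmd2 had 1.43 and 1.47. All 6 ATPases were called above 0 in both states, from 0.40 for Psmc1 to 1.11 for Psmc3 in EB and from 0.39 for Psmc2 to 1.68 for Psmc3 in ESC. In the lid, 7 of 8 genes were called in each state, from 0.85 for Psmd6 to 1.65 for Psmd13 in EB and from 0.54 for Psmd14 to 1.24 for Psmd7 in ESC, and Psmd8 was not called in either (-0.19 in EB and 0.20 in ESC). Sem1, a very small lid subunit whose symbol the rule does not cover, lay at the other side, with -1.29 ± 0.11 in EB and -0.91 ± 0.11 in ESC. Among the assembly chaperones Psmd5 had 0.41 in EB and 0.32 in ESC and was called in both states, Psmd10 was called in EB (0.31) and not in ESC (0.19), and Psmd9 was not called (0.08 in EB and 0.10 in ESC).

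Within the core the alpha ring spanned a wide range. Psma4 had 1.36 in EB and 1.08 in ESC and Psma7 had 0.85 in EB and 1.26 in ESC, while Psma3 had 0.00081 in EB and 0.09 in ESC and was not called. Psmb5, the chymotrypsin-like subunit, had the highest ratio of all members in ESC, with 1.83, 2.04 and 1.79, against 1.26, 1.58 and 1.35 in EB. The 3 lowest members in ESC besides Psmc3ip were Psma8, Psmb10 and Psmb9, at -0.28, -0.12 and -0.00081. As a measure of the same kind for another multi-subunit complex, 7 of the 8 tested genes of the CCT chaperonin, which folds actin and tubulin, were called above 0 in EB (median 0.77) and 6 in ESC (median 0.82).

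The pool ratio differed between EB and ESC for 5 of the 38 genes, 1 higher and 4 lower, where 4.18% of all tested genes were called higher and 5.16% lower. These calls depend on the processing: none was made with an offset of 8 or with hybridisation control scaling, and with median centring 8 were made, all higher. The shares of all tested genes called under these alternatives are not given here. Psmb6, the caspase-like catalytic subunit, had ratios of -0.30, -0.05 and -0.24 in EB and 0.60, 0.63 and 0.56 in ESC. Its groups did not overlap and differed by -0.79 ± 0.15 (adjusted p = 0.0104 by limma), while the deposited difference was 0.35. Psmb1 had -0.38, -0.15 and -0.18 in EB and 0.36, 0.66 and 0.51 in ESC, a difference of -0.75 ± 0.16 (adjusted p = 0.0141), and 0.43 on the deposited scale. Psmd4, the ubiquitin receptor, had 0.85, 1.10 and 0.86 in EB and 1.757, 1.456 and 1.501 in ESC (-0.64 ± 0.16, adjusted p = 0.03), and 0.52 on the deposited scale. Psmc3 had 1.06, 1.27 and 1.00 in EB and 1.77, 1.77 and 1.52 in ESC (-0.58 ± 0.16, adjusted p = 0.0406), and 0.60 on the deposited scale.

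Psmb10 was the 1 member called higher, with ratios of 0.61, 0.57 and 0.81 in EB and -0.0046, -0.14 and -0.20 in ESC, a difference of 0.78 ± 0.15 (adjusted p = 0.0115). It was also higher on the deposited scale, by 1.87, where the median over all tested genes was 0.73. The lid genes Psmd14 and Psmd13 came next. Psmd14 had 1.08, 0.96 and 1.19 in EB and 0.30, 0.59 and 0.73 in ESC (0.54 ± 0.17, adjusted p = 0.0606), and Psmd13 had 1.31, 1.69 and 1.96 in EB and 1.27, 1.17 and 1.08 in ESC (0.48 ± 0.18, adjusted p = 0.115). Neither was called, and in both the groups did not overlap. With 1 culture left out, the number of calls was 3 without the third EB culture, whose pool 2 array stood apart, 3 without the first EB or the first ESC culture, 2 without the third ESC culture, 0 without the second ESC culture and 5 without the second EB culture. Members together gave a median of -0.01 for the ratio difference, against 0.0053 for all tested genes. Of 18 genes with several probe sets that passed the filter, Psmc3ip included, 12 had the same sign in all of them, Psmb1 and Psmd4 among them. In a limma fit over all such probe sets, a second probe set of Psmb4 had -0.89 (adjusted p = 0.0117). The brighter one used for that gene had -0.32 and was not called.

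Relative to all genes, the constitutive catalytic subunits and their interferon-inducible counterparts lay on opposite sides of 0 on this measure, although the difference between the sets was not tested. The ratio difference was -0.49 ± 0.16 for Psmb5 (adjusted p = 0.0717), -0.79 for Psmb6 and -0.35 ± 0.15 for Psmb7 (adjusted p = 0.168), and it was 0.46 ± 0.17 for Psmb8 (adjusted p = 0.117), 0.10 ± 0.18 for Psmb9 (adjusted p = 0.788) and 0.78 for Psmb10. Psmb6 and Psmb10 were called and the other 4 were not. On the deposited scale all 6 were above 0, at 0.67, 0.35 and 0.73 for Psmb5, Psmb6 and Psmb7 and at 1.23, 0.82 and 1.87 for Psmb8, Psmb9 and Psmb10.

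Arrays of single pools show where these differences lay. In pool 1, Psmb6 had 10.85, 10.68 and 10.98 in EB and 9.83, 9.86 and 9.93 in ESC, the largest rise of any member in that pool (0.96 ± 0.10, adjusted p = 0.00445), and in pool 4 it had 10.40, 10.76 and 10.81 in EB and 11.07, 11.06 and 11.16 in ESC (-0.44 ± 0.12, adjusted p = 0.0267). In pools 2 and 3 its groups overlapped. Psmb5 had 10.61, 10.55 and 10.56 in EB and 11.06, 11.21 and 11.06 in ESC in pool 4, a difference of -0.54 ± 0.09 (adjusted p = 0.00265). The pool 4 differences of Psmb5 and Psmb6 were above 0 on the deposited scale, at 0.71 and 0.79. Psmb7 was higher in EB in pools 2 and 4, by 0.88 ± 0.22 and 0.51 ± 0.14.

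Psmb8 and Psmb10 were higher in EB in pools 3 and 4, and Psmb8 in pool 1 as well (0.43 ± 0.08, adjusted p = 0.0259). Psmb8 had 7.76, 7.23 and 7.24 in EB and 5.91, 6.26 and 6.26 in ESC in pool 3 (1.26 ± 0.17, adjusted p = 0.00112), and 6.78, 6.76 and 6.88 in EB and 5.55, 5.66 and 5.54 in ESC in pool 4 (1.23 ± 0.09, adjusted p = 8.78e-05). In total RNA it had 5.14, 5.57 and 5.90 in EB and 5.84, 5.99 and 6.82 in ESC, with overlap (-0.68 ± 0.30, adjusted p = 0.176). Psmb8 has a dim probe set, at the lowest value of its array on 4 of 24 pool arrays. All of these were ESC arrays: pool 1 replicate 3, pool 2 replicate 3, and pool 4 replicates 1 and 3. Its ESC values in pool 4 are therefore in part floor values, and their small spread and the SE there should be read with that limit. Psmb10 had 8.57, 8.68 and 8.66 in EB and 8.04, 7.92 and 8.02 in ESC in pool 4 (0.65 ± 0.09, adjusted p = 0.00107), while its total RNA was lower in EB relative to all genes and higher on the deposited scale. Psmb9 was not called in any pool or in total RNA, where it had 6.33, 6.16 and 6.10 in EB and 6.13, 6.002 and 6.84 in ESC.

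**Figure D3:**
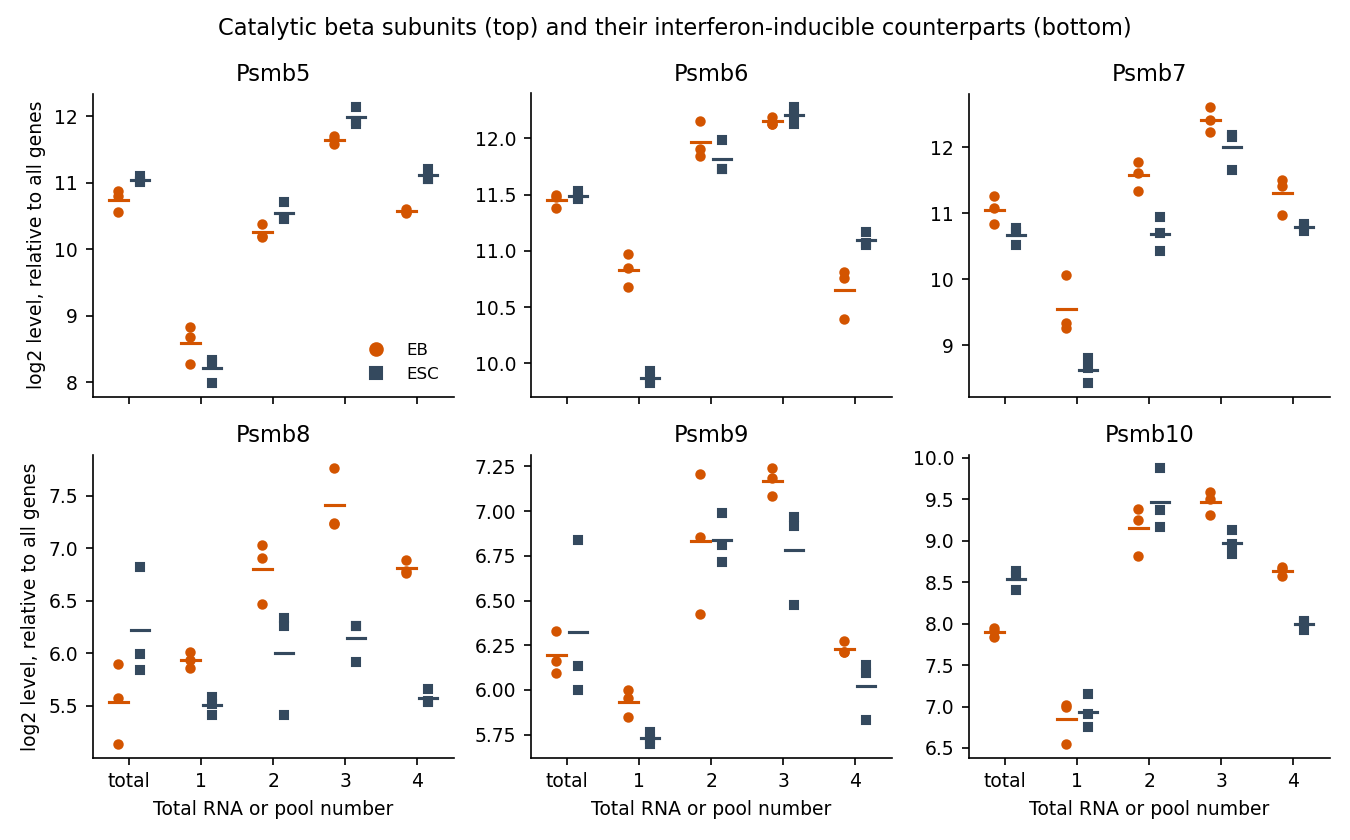
Log2 level relative to all genes in total RNA and in pools 1 to 4, with EB (circles) left of ESC (squares), for the catalytic subunit genes Psmb5, Psmb6 and Psmb7 (top) above the interferon-inducible gene whose product replaces each (bottom: Psmb8, Psmb9 and Psmb10). Each point is a culture and each bar the mean of 3, and each pool was normalized by itself. The pool 3 and pool 4 values of Psmb8 and Psmb10 in EB lie above all ESC values of the same pool. In pool 4, the EB values of Psmb5 and Psmb6 lie below the ESC values of that pool (above them by 0.71 and 0.79 on the deposited scale).

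Over all members, pool 1 had 10 of 38 genes called higher in EB and none lower (all tested genes, 6.25% higher and 6.53% lower), of which 7 were core genes. Besides Psmb6 these included Psmb4, a beta subunit without proteolytic activity, by 0.82 ± 0.11, Psma7 by 0.77 ± 0.11, Psmd4 by 0.87 ± 0.18 and the ATPase Psmc5 by 0.75 ± 0.15. With 1 culture left out, 6 were called without the third EB culture, 5 without the first or the second ESC culture and 2 without the third. Shares of all tested genes called with a culture left out are not given, here or for the other comparisons. Such counts therefore do not show a loss of calls particular to the members. Fewer were also called with a replicate block, by the count in the last section. Deviations of same-numbered cultures correlated in pool 1 at 0.011, 0.03 and 0.063 relative to all genes, and at 0.54, 0.32 and 0.34 on the deposited scale. None was called on the deposited scale, where 361 of all tested genes and none of the 38 members had an unadjusted p below 0.05 and no gene was called by limma. In pool 2, Psmb7 was higher and Psmd13 lower (all tested genes, 3.35% higher and 3.78% lower). Psmd13 had 8.81, 9.03 and 8.88 in EB and 9.70, 9.79 and 10.25 in ESC there, and fell by 1.01 (SE 0.21, adjusted p = 0.025). Without the third EB culture, 4 members were called in pool 2, and 0 were called without any other 1 culture.

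In pool 3, core genes had 2 called higher (Psmb8 and Psmb10) and none lower, and regulatory genes had 1 called higher (Psmd10) and 5 lower, where 11.7% of all tested genes were higher and 11.3% lower. The 5 were Psmd13 (-0.69 ± 0.12), Psmc3 (-0.57 ± 0.12), Psmd1 (-0.53 ± 0.15), Psmc1 (-0.52 ± 0.11) and Psmd2 (-0.42 ± 0.13), and on the deposited scale all 5 were above 0, between 0.61 and 0.83, below the median of 0.98 over all tested genes. Members called in pool 3 numbered 5 without the second EB, the third EB or the second ESC culture. In pool 4, 5 core genes were called higher and 4 lower, and 5 regulatory genes were called higher and 1, Psmd9, lower, by 0.35 on the log2 scale (0.70 higher on the deposited scale; all tested genes, 15.4% higher and 14.6% lower). Psmd12, a lid subunit, had 10.90, 10.97 and 10.93 in EB and 10.003, 10.12 and 10.12 in ESC in pool 4 (0.85 ± 0.09, adjusted p = 0.000311). Psmb3 had 10.73, 10.63 and 10.83 in EB and 11.47, 11.52 and 11.76 in ESC (-0.86 ± 0.11, adjusted p = 0.000803), and 0.38 on the deposited scale. Members called in pool 4 numbered 9 without the third EB culture, 6 without the second ESC culture and 10 without the first or the third ESC culture. Core minus regulatory in pool 3 was 0.390, 0.382 and 0.501 in EB and 0.097, 0.147 and 0.077 in ESC. In pool 4 it was -0.390, -0.305 and -0.320 in EB and -0.134, -0.184 and -0.164 in ESC, so the EB cultures lay above all ESC cultures in pool 3 and below all of them in pool 4, on the deposited scale as well.

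The step between pool 3 and pool 4 was therefore compared between the states, a measure chosen after the profiles over the pools had been seen. The core mean in pool 4 minus pool 3 was -0.54, -0.40 and -0.45 in EB and -0.27, -0.33 and -0.32 in ESC. The regulatory mean was 0.28, 0.32 and 0.42 in EB and -0.02, 0.02 and -0.06 in ESC. Core minus regulatory was therefore -0.800 ± 0.074 in EB and -0.290 ± 0.052 in ESC (SD, n = 3 each). On the deposited scale it was -0.765 ± 0.087 in EB and -0.244 ± 0.099 in ESC. The step of the regulatory mean itself varied widely between cultures on that scale, at -0.96, 0.026 and -0.0043 in EB and -0.90, 0.011 and -1.003 in ESC.

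Gene by gene, the step from pool 3 to pool 4 was called different between EB and ESC for 7 of the 38 members, 6 regulatory genes higher and 1 core gene lower (all tested genes, 7.06% higher and 6.29% lower). Psmd12 had 0.65, 0.97 and 1.00 in EB and -0.15, -0.02 and -0.38 in ESC, a difference of 1.06 ± 0.16 (adjusted p = 0.00684 by limma). Psmd2 had 1.13, 1.00 and 1.19 in EB and 0.33, 0.10 and 0.25 in ESC (0.88 ± 0.14, adjusted p = 0.00742), and Psmd1 had 1.29, 1.31 and 1.47 in EB and 0.50, 0.43 and 0.66 in ESC (0.82 ± 0.14, adjusted p = 0.00816). In each of these the lowest EB culture lay above the highest ESC culture. Psmd13, Psmd14 and Psmc3 were also called, with 0.72, 0.66 and 0.59. The deubiquitinase gene Psmd14 had 0.58, 0.74 and 0.68 in EB and -0.03, 0.01 and 0.05 in ESC.

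The core gene called lower was Psmb3, a beta subunit without proteolytic activity, with -0.60, -0.69 and -0.81 in EB and -0.09, -0.27 and -0.09 in ESC (-0.55 ± 0.14, adjusted p = 0.0303). Psmc3ip was lower by 0.56 and called as well. Among regulatory genes 15 of 20 were above 0 and the median was 0.40. Among core genes 6 of 18 were above 0 and the median was -0.22, against -0.0086 over all tested genes. The 5 regulatory genes below 0 were Psmc4, Psmd7, Psmd8, Psmd9 and Psmd10, none called, of which Psmc4 was the lowest at -0.47 ± 0.19 (adjusted p = 0.131). Members called numbered 4 without the third EB or the first ESC culture, and 0 without the first or the second replicate of both states. The call was lost for Psmd2 (0.28), Psmd13 (0.16) and Psmb3 (-0.35) when all probe sets of a gene were averaged, with those left out by the filter on low values included. On the deposited scale no member and no other gene was called by limma, although 619 of the 13250 genes and 2 of the 38 members had an unadjusted p below 0.05. The 8 tested CCT genes had a median of 0.76 with 7 called higher, so a step of this size was also found outside the proteasome.

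**Figure D4:**
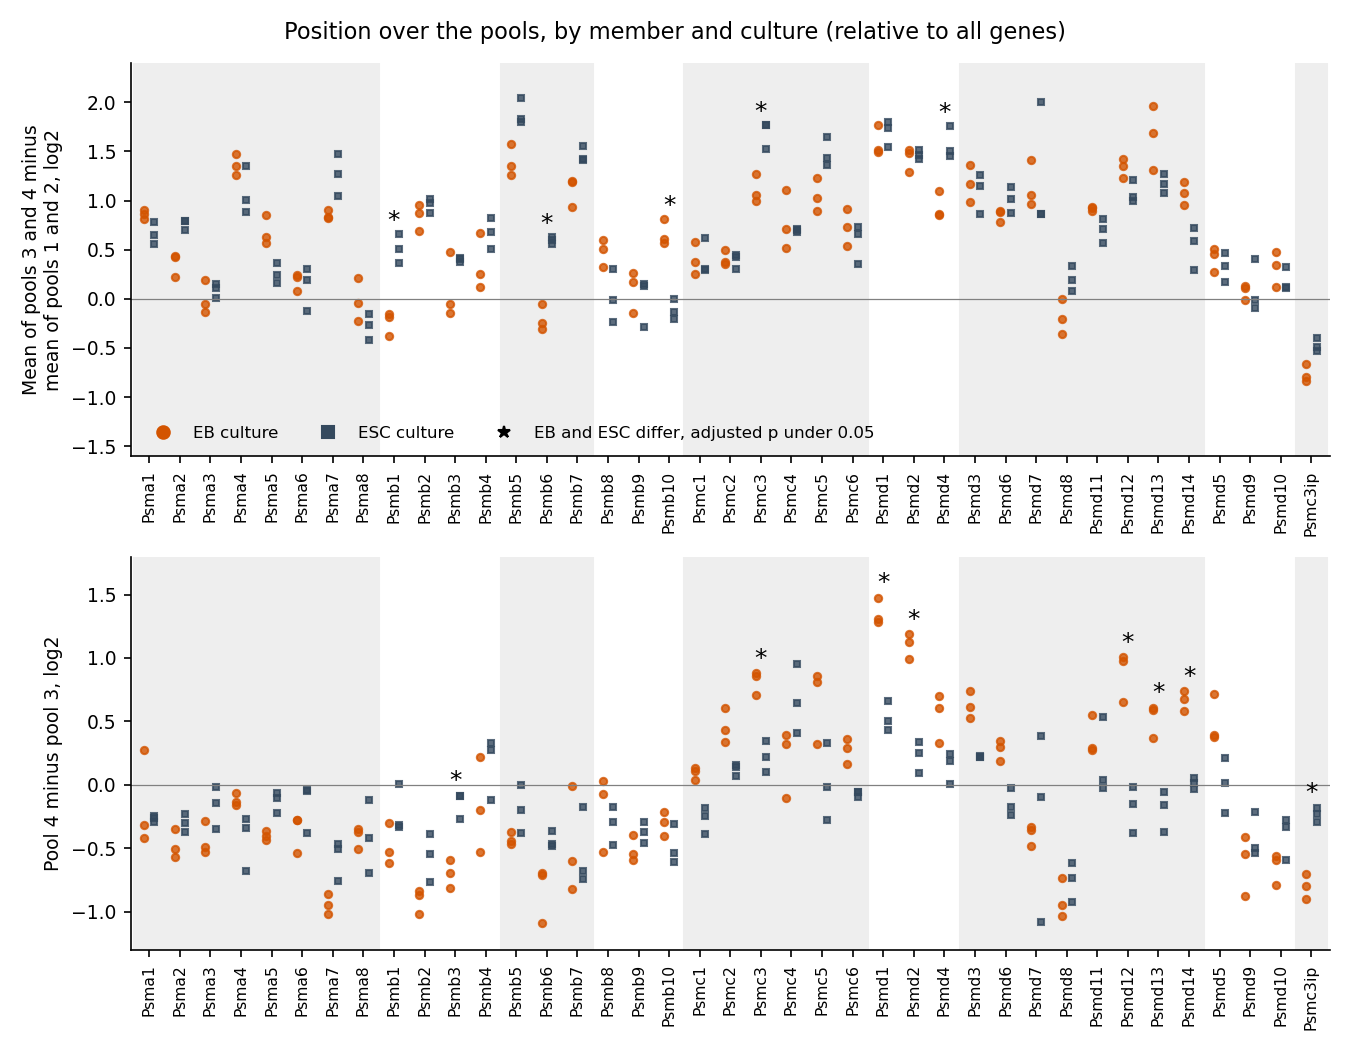
Log2 values relative to all genes for each tested member in each culture, EB (circles) left of ESC (squares), with the mean of pools 3 and 4 minus the mean of pools 1 and 2 above and pool 4 minus pool 3 below, ordered by role in bands as in the plot of total RNA. Asterisks mark an adjusted p under 0.05 for EB against ESC: Psmb1, Psmb6, Psmb10, Psmc3 and Psmd4 above, and Psmb3, Psmc3, Psmd1, Psmd2, Psmd12, Psmd13, Psmd14 and Psmc3ip below; in the lower panel core genes lie mostly below 0, and ATPases, other base genes and most lid genes in EB lie above 0, while on the deposited scale the regulatory mean of this step was below 0 in both states (-0.31 in EB and -0.63 in ESC).

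Promoter sequence was compared for the 32 of 39 genes with an entry in the RefSeq promoter table (GRCm38.p6), over the 250 bases before the annotated start, on both strands. The GC box GGGCGG was present in 18 of the 32 (56.2%), in 6 of 15 core and 12 of 17 regulatory genes, against 35.4% of 27025 genes. The CCAAT box was present in 13 of 32 (40.6%, against 37.5% of all genes). The antioxidant response core TGANNNNGC was also present in 13 (40.6%, against 38.7%), and its extended form TGACTCAGC, contained in it, in none (0.426% of all genes). The 100 bases before the start are shown for 2 lid genes whose step from pool 3 to pool 4 was called. They are also shown for the 2 catalytic genes that were lower in EB in pool 4 relative to all genes, and higher there on the deposited scale. The 2 pairs were chosen by different measures, and no catalytic gene was called in the step from pool 3 to pool 4. Capitals mark matches to the promoter words above on either strand.
Psmd12 (chr11:107479428-107479527, plus strand): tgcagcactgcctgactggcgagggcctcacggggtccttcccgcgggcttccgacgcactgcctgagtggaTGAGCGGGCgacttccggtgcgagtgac
Psmd14 (chr2:61711594-61711693, plus strand): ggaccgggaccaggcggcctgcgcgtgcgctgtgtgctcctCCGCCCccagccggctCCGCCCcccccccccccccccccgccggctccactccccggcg
Psmb5 (chr14:54617996-54618095, minus strand): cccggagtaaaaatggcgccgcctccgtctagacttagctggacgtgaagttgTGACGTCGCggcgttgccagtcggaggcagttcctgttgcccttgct
Psmb6 (chr11:70525257-70525356, plus strand): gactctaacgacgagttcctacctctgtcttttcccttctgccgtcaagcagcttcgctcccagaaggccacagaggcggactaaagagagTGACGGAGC
In the bases shown, Psmd14 held GGGCGG on the opposite strand more than once, and the other 3 held TGANNNNGC once each. A match says only that these letters occur in the window.

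Genes that act with the proteasome were followed as a list of 45, of which 33 were tested. In total RNA, Ngly1, the deglycosylase that activates the transcription factor of the subunit genes, was higher in EB by 0.62 ± 0.13, and 4 were lower: the assembly chaperones Psmg4 (-0.89 ± 0.14) and Psmg3 (-0.56 ± 0.12), the shuttle factor Rad23b (-0.69 ± 0.10) and the deubiquitinase Uchl5 (-0.53 ± 0.11), where 6.55% of all tested genes were higher and 6.09% lower. On the deposited scale these 4 were above 0, between 0.37 and 0.71. In the pool ratio, 6 were higher in EB and 1 was lower, with a median of 0.25 (all tested genes, 4.18% higher and 5.16% lower, with a median of 0.0053). The 6 were the ubiquilins Ubqln2 (0.96 ± 0.16) and Ubqln1 (0.78 ± 0.15), which carry ubiquitinated proteins to the proteasome, the alternative cap Psme4 (0.78 ± 0.15), the proteasome-bound deubiquitinase Usp14 (0.66 ± 0.16), the thioredoxin-like Txnl1 (0.61 ± 0.17) and the transcription factor Mafk (0.61 ± 0.15), and Psmg4 was lower (-0.80 ± 0.19, and 0.25 on the deposited scale). Vcp, the segregase that extracts ubiquitinated proteins, had a high ratio in both states, 1.84 ± 0.13 in EB and 1.43 ± 0.13 in ESC.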

How the data were processed

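Affymetrix mouse expression arrays measured total RNA and 4 gradient pools in 3 cultures each of EB and ESC, 30 arrays in 10 groups. The authors deposited log2 signals for 45101 probe sets; the submitters' processing notes name MAS5 and affy, and their settings are not given in the sources used here. The values appear scaled to spike-in controls, added at a step not given in the sources used here. Probe sets were named from the platform annotation; 34945 had 1 symbol.

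For this report an offset of 32 was added to the linear form of the deposited log2 values before logs were taken again. Probe sets in the lowest 40% by mean were left out, the probe set with the highest mean stood for a gene, and arrays of a fit were quantile-normalized. EB minus ESC in total RNA, in each pool, in the pool ratio and in pool 4 minus pool 3, and the pool ratio within a state against 0, were fitted by lmFit and eBayes of limma (version 3.58.1, under R 4.3.3), and two-sided p-values were adjusted by Benjamini-Hochberg over 13250 genes. Figures were drawn with matplotlib 3.10.9. The fits of total RNA and of the pool ratio were tested on simulated data with 100 genes changed by each amount. All other genes were left unchanged there, whereas in the data 868 genes were called higher and 807 lower in total RNA. The adjusted threshold depends on how many genes change, so the shares called in the simulation may differ from those in the real fits. The step from pool 3 to pool 4 was not simulated. Of genes changed by 0.5 on the log2 scale, 4% were called in total RNA and 3% in the pool ratio. Of genes changed by 1, 55% and 68% were called. A member that was not called may therefore still have changed by such amounts. By the rule for named genes, any member may be named, and values of every array are given for the catalytic and interferon-inducible genes and for up to 3 members called higher and 3 called lower in total RNA and in the pool ratio, filled up by the largest differences not called; other members shown by array were chosen after their values were seen. The members and lists were chosen with earlier results of these data known. The alternatives were the deposited scale, 3 other scalings, an offset of 8, no filter, all probe sets averaged, a replicate block, other pool ratios and each replicate left out. The deposited scale kept the offset of 32 and had no normalization between arrays. The average over all probe sets included those that the filter on low values left out. The number of arrays limits the precision. Protein sequences were not used here.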

Additional observations from a re-analysis of the deposited data

Results flagged for a closer look

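By the test of the pool ratio relative to all genes, the difference between EB and ESC in pools 3 and 4 was called different from that in pools 1 and 2 for 5 members. Of all tested genes, 4.18% were called higher and 5.16% lower. The excess in pools 3 and 4 was 0.78 for Psmb10, -0.79 for Psmb6, -0.75 for Psmb1, -0.64 for Psmd4 and -0.58 for Psmc3. On the deposited scale Psmb6, Psmb1, Psmd4 and Psmc3 had the opposite sign, at 0.35, 0.43, 0.52 and 0.60. No subunit gene was called with hybridisation control scaling or with an offset of 8. Likewise the difference between EB and ESC in pool 4 was called different from that in pool 3 for 8 genes, in a comparison chosen after the profiles had been seen. Here 7.06% of all tested genes were called higher and 6.29% lower. The excess in pool 4 was 1.06 for Psmd12, 0.88 for Psmd2, 0.82 for Psmd1, 0.72 for Psmd13, 0.66 for Psmd14, 0.59 for Psmc3, -0.55 for Psmb3 and -0.56 for Psmc3ip. For this step no subunit gene was called on the deposited scale or with hybridisation control scaling. Psmc3 appears on both lists with opposite signs: it was higher in EB in pool 1 by 0.68 ± 0.14, had -0.57 ± 0.12 in pool 3, and in pool 4 differed by -0.01. Groups of 3 cultures are too small for a formal test for outlying samples. Correlations between arrays of the same group were lowest in EB pool 2, from 0.914 to 0.976, and were at least 0.959 in every other group.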

How the results depend on the processing

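Within each comparison, the core minus regulatory difference kept its sign under every alternative that gave a value. The sign was not the same in all comparisons. For EB minus ESC it was positive in pools 1 to 3, and negative in total RNA, the pool ratio, pool 4 and pool 4 minus pool 3. The counts of calls did not hold as well. Shares of all tested genes are given in this report only for the main fits and the deposited scale. Scalings that shift all genes of an array together can move the counts below without any shift particular to the members. Members called, main against alternatives, were as follows. In total RNA, 3 were called, against 37 on the deposited scale, 8 with median centring, 11 with 75th percentile scaling, 7 with all probe sets averaged and 0 with the replicate block. In the pool ratio between EB and ESC, 5 were called, against 36 on the deposited scale, 8 with median centring (all higher), 11 with all probe sets averaged, 8 with the ratio as pool 4 minus pool 1, and 0 with hybridisation control scaling or an offset of 8. Within ESC, 28 were called, against 16 on the deposited scale. In pool 1, 10 were called, against 0 on the deposited scale and with hybridisation control scaling, 1 with median centring, 4 with 75th percentile scaling and 3 with the replicate block. In pool 2, 2 were called, against 0 on the deposited scale, with hybridisation control scaling and with an offset of 8, 1 with median centring and with all probe sets averaged, and 7 with 75th percentile scaling. In pool 3, 8 were called, against 31 on the deposited scale, 5 with median centring and with an offset of 8, 20 with 75th percentile scaling, 1 with hybridisation control scaling and 14 with all probe sets averaged. In pool 4, 15 were called, against 38 on the deposited scale and 1 with hybridisation control scaling. For pool 4 minus pool 3, 7 were called, against 0 on the deposited scale and with hybridisation control scaling.

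Core minus regulatory for EB minus ESC in total RNA was -0.24 on the deposited scale and with median centring and -0.022 with all probe sets averaged, for a value of -0.16. In pool 4 it was -0.24 on the deposited scale and with median centring, -0.14 with an offset of 8 and -0.12 with all probe sets averaged, for -0.18. For pool 4 minus pool 3 it was -0.40 with all probe sets averaged, for -0.51. For the pool ratio it was -0.30 with the ratio as pool 4 minus pool 1, for -0.06. Within EB it was -0.43 on the deposited scale and with median centring, -0.42 with 75th percentile scaling, -0.44 with hybridisation control scaling, -0.18 with all probe sets averaged, -0.86 for pool 4 minus pool 1 and -0.46 without pool 2. Within ESC it was -0.37 with 75th percentile scaling, -0.39 with hybridisation control scaling, -0.13 with all probe sets averaged, -0.57 for pool 4 minus pool 1 and -0.42 without pool 2.

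Leaving out replicates gave 0 to 1 calls in total RNA, 0 to 5 in the pool ratio, 0 to 8 in pool 1, 0 to 4 in pool 2, 1 to 8 in pool 3, 6 to 12 in pool 4 and 0 to 7 for pool 4 minus pool 3, the lowest counts coming when a replicate was left out of both states. Core minus regulatory then ranged from -0.10 to -0.026 in the pool ratio, 0.029 to 0.16 in pool 1, 0.12 to 0.22 in pool 2, 0.26 to 0.37 in pool 3 and -0.58 to -0.46 for pool 4 minus pool 3.

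On the deposited scale the sign was opposite for 21 of the 38 members in total RNA, 20 in the pool ratio, 4 within EB, 6 within ESC, 21 in pool 3, 16 in pool 4, 7 in pool 2 and 2 each in pool 1 and in pool 4 minus pool 3. They included, with the deposited value, in total RNA Psma8 (0.54), Psmb10 (0.63), Psmb5 (0.84), Psmb6 (1.08) and Psmb9 (0.57); in the pool ratio Psmb1 (0.43), Psmb5 (0.67), Psmb6 (0.35), Psmb7 (0.73), Psmc3 (0.60) and Psmd4 (0.52); within EB Psmb6 (0.58) and Psmc3ip (0.25), and within ESC Psmb3 (-0.025); in pool 3 Psmb6 (1.17), Psmc1 (0.76), Psmc3 (0.68), Psmd1 (0.72), Psmd13 (0.61) and Psmd2 (0.83); in pool 4 Psma3 (0.90), Psmb3 (0.38), Psmb5 (0.71), Psmb6 (0.79) and Psmd9 (0.70). With hybridisation control scaling Psmb6 (1.00) and Psmc3ip (0.62) turned within EB, and Psmb10 (0.76), Psmb9 (0.50) and Psmc3ip (0.40) within ESC. With 75th percentile scaling Psma1 turned in pool 1 (-0.058). With all probe sets averaged Psmd2 turned in total RNA (-0.55), Psma1 (-0.32), Psmc1 (-0.23), Psmd11 (-0.033) and Psmd7 (-0.41) within EB, Psmc6 (-0.018) within ESC, and Psma1 (-0.42) and Psmd2 (-0.35) in pool 4. The cause of each was not tested.

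Whether equal replicate numbers pair the cultures was not settled. On the scale relative to all genes no comparison had every correlation of same-numbered deviations above 0.1, the cutoff used, although most were above 0. On the deposited scale pools 1 (0.54, 0.32 and 0.34) and 2 (0.34, 0.14 and 0.15) did. Mean linear signal ranked the replicates alike in both states in pools 1, 2 and 3 and in total RNA, and not in pool 4. With the replicate block the counts were 0 in total RNA, 5 in the pool ratio, 3, 2, 9 and 15 in pools 1 to 4 and 5 for pool 4 minus pool 3. Without it 3 were called in total RNA and 10 in pool 1. Dim probe sets such as Psmb8 are limited by signal near the lowest value of the pool arrays.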
